A study of Saccharomyces cerevisiae with 11 samples.

Results

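HML and HMR are the silent mating cassettes of budding yeast: unexpressed copies of mating-type genes that lie on the same chromosome as MAT, the expressed locus. Their 4 open reading frames (ORFs), of the 5985 annotated outside the rDNA, were examined with 2000 bp on each side. All 4 passed the filter on low coverage. HML holds HMLALPHA2 (YCL067C, chrIII:12386-13018, C strand) and HMLALPHA1 (YCL066W, chrIII:13282-13809, W strand). HMR holds HMRA2 (YCR096C, chrIII:293179-293538, C strand) and HMRA1 (YCR097W, chrIII:293835-294321, W strand). Positions are those of sacCer3, the build in the submitters' processing notes, and of the R64 annotation. HML begins 12385 bp from the left end of the chromosome and HMR ends 22299 bp from the right end. A cassette is taken here as the interval from the first to the last base of its ORFs, 1424 bp at HML and 1143 bp at HMR.

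A budding yeast cell takes its mating type from the genes at MAT, and the silent cassettes serve as donors when the HO endonuclease cuts MAT and the cell switches type. At HML and HMR, silencers bound by the origin recognition complex, Rap1 and Abf1 recruit the Sir proteins, and Sir2 deacetylates the histones of the cassette. The chromatin that results is compact and carries regularly placed nucleosomes. The alpha1 protein activates the alpha-specific genes, alpha2 represses the a-specific genes, and a1 acts with alpha2 in diploid cells; a2 has no known function in Saccharomyces cerevisiae. BY4742 cells are MATalpha, so alpha sequence was present both at MAT and at HML, while a1 sequence was present at HMR.

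Micrococcal nuclease (MNase) cuts linker DNA, and the sequenced fragments map nucleosomes. The 11 libraries came from Saccharomyces cerevisiae BY4742 strains in which Top1 and Top2, the DNA topoisomerases, both carry an auxin-inducible degron (Top1-AID, Top2-AID). Strain yTL1290 also expresses the F-box protein OsTIR1 from the ADH1 promoter and was either given auxin at 500 uM during 60 min (3 libraries by the labels) or left untreated (4 libraries). Strain yTL1245, without OsTIR1, was untreated (4 libraries). All cultures grew in 2% galactose and were fixed with paraformaldehyde before digestion with 0.1875 U (high dose) or 0.01171875 U (low dose) of MNase. The degron acts on the protein, so these DNA libraries do not measure the depletion. Nothing in the labels says that replicates came from separate cultures, so p-values measure the spread between these libraries, which may be technical.

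For 4 OsTIR1 libraries the labelled dose is the opposite of the dose in the name of the deposited file. They are the libraries labelled auxin low dose replicate 1, auxin high dose replicate 1, untreated low dose replicate 2 and untreated high dose replicate 2, and the last is also named as treated with auxin. The mean fragment length was 129 to 140.3 bp in the 6 libraries named high dose and 149.8 to 162 bp in the 5 named low dose. Over 1 kb bins of the genome, Pearson's r was 0.861 to 0.982 between libraries of the same named dose and 0.429 to 0.734 between libraries of different named doses. Values below are therefore grouped by the file names, and tests by the labels stand beside them. By the names, the 6 high-dose libraries are 2 with auxin, 2 untreated OsTIR1 and 2 without OsTIR1, and the 5 low-dose libraries are 2, 1 and 2 in the same order. Coverage, the number of fragments over a base, is given relative to each library's nuclear mean without the rDNA, where 1 is the mean. The libraries held 8906121 to 31138013 nuclear fragments, which put a mean of 52.6 to 321 fragments over a base of each of the 4 ORFs.

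Coverage of HML could not be told apart from that of MAT. The alpha ORFs of MAT, MATALPHA2 (YCR039C, chrIII:199546-200178) and MATALPHA1 (YCR040W, chrIII:200442-200969), lie 187160 bp to the right of their HML copies. At that distance the coverage of HML and MAT matched base by base, with r of 0.879 to 0.993 across bases of the cassette in the 11 libraries and a ratio of HML to MAT of 0.931 to 1.09. The difference between the copies was set against what a random split of the same fragments would give, as a noise ratio that is 1 for such a split and is given as the median over the 11 libraries. Over 32 consecutive blocks of 50 bp, chrIII:12286-13885, which hold both HML ORFs, the noise ratio was below 2 in every block and had a median of 0.69. A further run of 12 blocks, chrIII:11586-12185, lay over most of YCL068C, an uncharacterised ORF left of HML, and only 2 blocks between the runs were above 2, at 2.19 and 2.26. Among the other 76 blocks the median was 10.4. How fragments that match both copies were assigned is not given in the sources used here, so the values of the HML ORFs and of YCL068C are read as values shared with MAT.

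**Figure D1:**
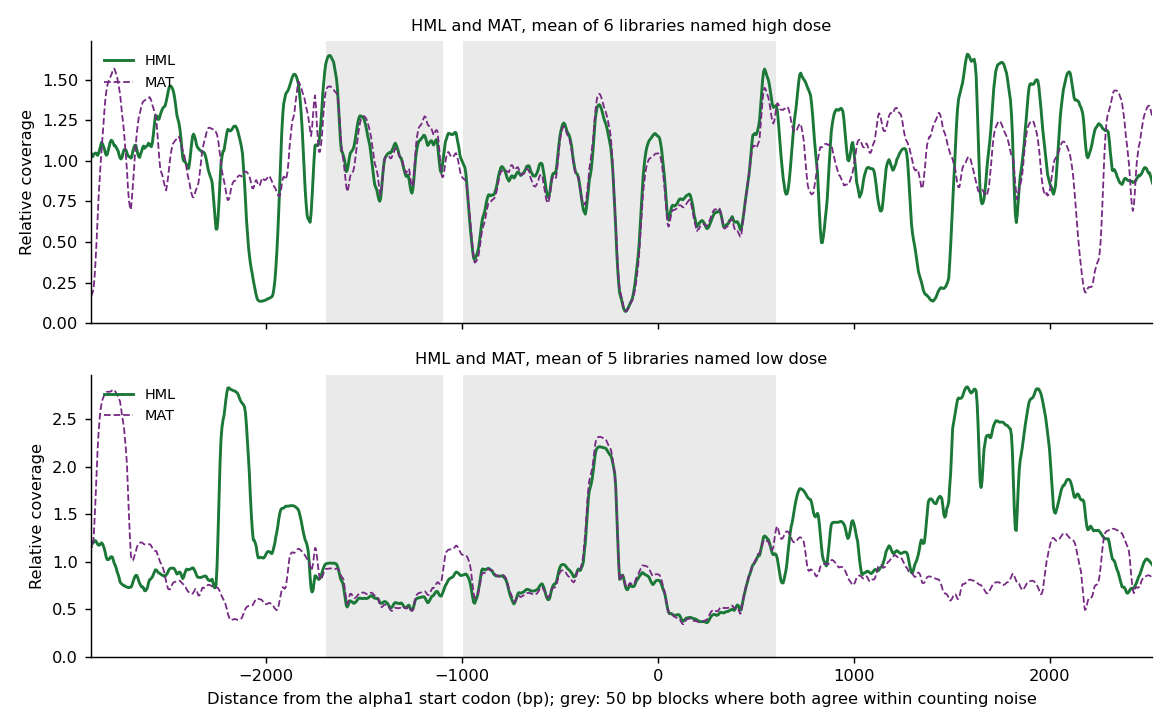
Relative coverage (1 is the library's nuclear mean) of HML and MAT aligned on the start codon of alpha1, as the mean of the 6 libraries named high dose (top) and of the 5 named low dose (bottom). Grey marks runs of at least 3 blocks of 50 bp with a noise ratio below 2. The HML and MAT lines lie on each other across the grey range at both doses and part on either side of it, so the 2 outer gaps of HML have no counterpart at MAT.

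HMR shared reads with MAT over a shorter stretch. At the distance of 93633 bp between HMRA2 and the end of MATALPHA2, 9 consecutive blocks, chrIII:199546-199995 at MAT and chrIII:293179-293628 at HMR, had a median noise ratio of 0.55, against 22.3 in the other 99 blocks. These blocks hold the whole of HMRA2. Over HMRA1 no run of matching blocks was found at this distance: 1 block, chrIII:294029-294078, had a noise ratio of 1.05, with 12.4 and 9.96 in the blocks on either side. At the distances compared, HMRA1 was the 1 ORF of the 4 in no run of blocks shared with MAT. Other distances were not tested for HMRA1, and HMR was not compared with HML. Whether HMRA1 shares reads with either is therefore not known.

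At the ORF level, HMRA1 had 1.04 and 1.01 in the libraries named high dose with auxin, 1.03 and 1.01 in those of untreated OsTIR1, and 0.951 and 0.967 in those without OsTIR1. In the libraries named low dose it had 0.853 and 0.919 with auxin, 0.926 in untreated OsTIR1, and 0.889 and 0.888 without OsTIR1. All 6 libraries named high dose lay above all 5 named low dose. Over the genome, limma by the file names called 74.3% of the 5959 ORF bodies tested higher at the high dose. The share of bodies whose doses did not overlap was not counted. At the named high dose both libraries without OsTIR1 lay below the 4 with OsTIR1. How many bodies show this order was not counted either. At the named low dose the libraries with auxin lay on both sides of those without OsTIR1, with untreated OsTIR1 highest. Against all other ORF bodies of the same library, HMRA1 stood at the 23.1st to the 46.1st percentile in the libraries named high dose and at the 47.1st to the 64.9th in those named low dose. It was thus below the median ORF body in every library named high dose, and on either side of it in those named low dose.

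HMRA2, which shares its reads with MAT, had a lowest value of 0.802, a median of 0.840 and a highest value of 0.914 in the 6 libraries named high dose, and 0.665, 0.754 and 0.758 in the 5 named low dose. HMLALPHA1 had 0.712, 0.751 and 0.818 in the libraries named high dose, and 0.474, 0.550 and 0.578 in those named low dose. The doses did not overlap for either ORF, and here too the share over all bodies was not counted. HMLALPHA2 had 0.927, 0.951 and 1.01 in the libraries named high dose, and 0.874, 1.02 and 1.07 in those named low dose, which overlap. The MAT copies gave nearly the same values: MATALPHA1 had a median of 0.725 in the libraries named high dose and 0.564 in those named low dose, and MATALPHA2 0.949 and 1.04. HMLALPHA1 stood low among all ORF bodies in the libraries named high dose, at the 2.90th to the 10.5th percentile.

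**Figure D2:**
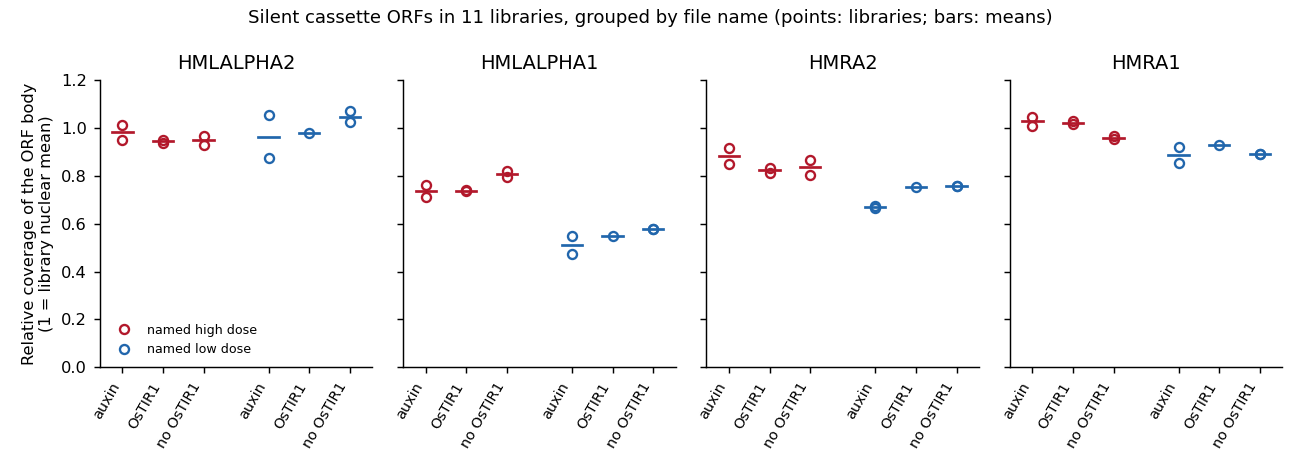
Relative coverage of the ORF bodies of the 4 silent cassette ORFs, 1 panel each, in the 11 libraries grouped by the file names (points) with group means (bars), auxin left of untreated OsTIR1 and of no OsTIR1, at the named high dose (red) left of the named low dose (blue). HMLALPHA1, HMRA2 and HMRA1 are higher in every library named high dose than in any named low dose, and HMLALPHA2 overlaps. How many of all ORF bodies show the same was not counted. The axis starts at 0.

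The silent arrays were read from the mean profile of the 6 libraries named high dose, smoothed over 21 bp. HMR was bounded by stretches that this dose almost emptied. A gap, here a stretch below 0.25, ran from chrIII:292554 to 292796, 243 bp wide, left of HMRA2. Its coverage was 0.0327 and 0.0327 in the libraries named high dose with auxin, 0.0613 and 0.0489 in untreated OsTIR1 and 0.0542 and 0.0844 without OsTIR1. On the right side of HMRA1 a gap of 113 bp ran from chrIII:294779 to 294891, with 0.0468 to 0.122. Farther right, a gap of 205 bp ran from chrIII:295441 to 295645 with 0.0760 to 0.180, and covered the tRNA gene YNCC0014W (chrIII:295484-295556). The tRNA gene next to HMR is known as a barrier to the spread of silent chromatin. The annotation used here gives no positions for the silencers, so the gaps were not assigned to them.

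Between the first 2 gaps of HMR, over 1982 bp, the mean profile had 10 peaks. Of the 9 distances between neighbouring peaks, 8 lay in a set range of 120 to 220 bp. These ran from 145 to 217 bp, with a mean of 173 ± 23.1 bp (SD, n = 8 distances of 1 profile). The set range bounds this mean and SD, so they are no measure of regular spacing. The other distance was 388 bp, across HMRA2. Relative to the start codon of HMRA1 the peaks over and beyond the gene lay at 27, 181, 357, 528, 673 and 841 bp. The peak at 841 bp, beside the gap, was the highest of the 10, at 1.90. Single libraries named high dose had a peak within 20 bp of the mean profile's in 49 of 60 cases, and 4 of the 10 peaks were matched in all 6 libraries. The libraries named low dose matched in 11 of 50 cases. The mean profile was made from the libraries named high dose, so part of their match was built in. These counts therefore do not compare the doses.

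**Figure D3:**
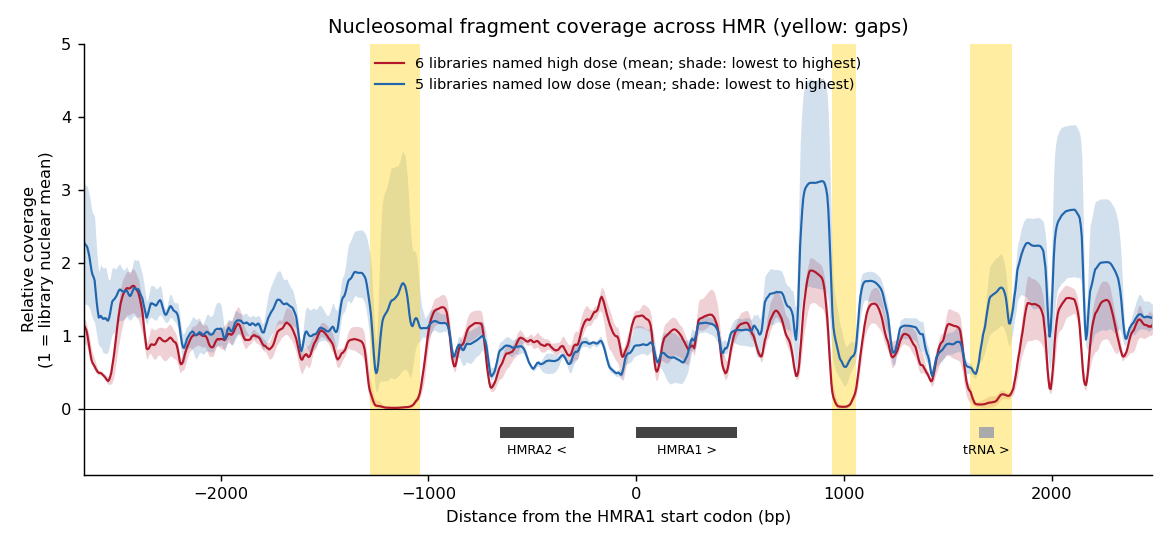
Relative coverage (1 is the library's nuclear mean) across HMR and 2000 bp on either side, by distance from the start codon of HMRA1, for the 6 libraries named high dose (red, mean with the range as shade) and the 5 named low dose (blue). Yellow marks the 3 gaps, which fall to 0.180 or less in every library named high dose and to no less than 0.466 in any named low dose. The gaps were found in the mean of the libraries named high dose, which favours low values at that dose. The arrows beside gene names give the strand.

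HML had 3 gaps as well. The outer ones lay left of HMLALPHA2, at chrIII:11219-11325 (107 bp), and right of HMLALPHA1, at chrIII:14628-14759 (132 bp). Coverage in the libraries named high dose was 0.0922 to 0.206 in the left gap and 0.108 to 0.230 in the right one, and neither lay in the range shared with MAT. Between them, over 3302 bp, the mean profile had 17 peaks. Of the 16 distances, 12 lay in the same set range of 120 to 220 bp. These ran from 137 to 207 bp, with a mean of 171 ± 20.2 bp (SD, n = 12 distances of 1 profile). As at HMR, the set range bounds this mean and SD. The others were 113, 230, 282 and 439 bp, and all 4 involve peaks in the range shared with MAT. Single libraries matched the mean profile within 20 bp in 81 of 102 cases when named high dose and in 33 of 85 when named low dose. As at HMR, the profile came from the libraries named high dose, so these counts do not compare the doses.

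The middle gap of HML lay between the divergent HMLALPHA2 and HMLALPHA1, at chrIII:13081-13165 (85 bp), where the promoter of the alpha genes is. Its MAT counterpart was as empty. The libraries named high dose had 0.101 to 0.180 at HML and 0.0842 to 0.186 at MAT. If fragments that match both copies are divided between them, neither copy can hold more than the sum over both, which was 0.189 to 0.361 in the libraries named high dose.

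The interval between the divergent HMRA2 and HMRA1, 296 bp against 263 bp at HML, had no such gap. Its emptiest stretch of the same 85 bp was sought in each library by itself. It had 0.591 and 0.931 in the libraries named high dose with auxin, 0.974 and 0.963 in untreated OsTIR1 and 0.922 and 0.892 without OsTIR1. In every library named high dose this was above the sum over HML and MAT. A peak of 1.54 stood 167 bp upstream of HMRA1. In the libraries named low dose the emptiest HMR stretch, which may lie elsewhere, had 0.476 to 0.570. That was below the sum over HML and MAT of 0.889 to 2.47. A lowest value at HMR is set there against a sum over both copies at a fixed position, which favours this order. Which of HML and MAT gives the shared gap could not be told apart.

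**Figure D4:**
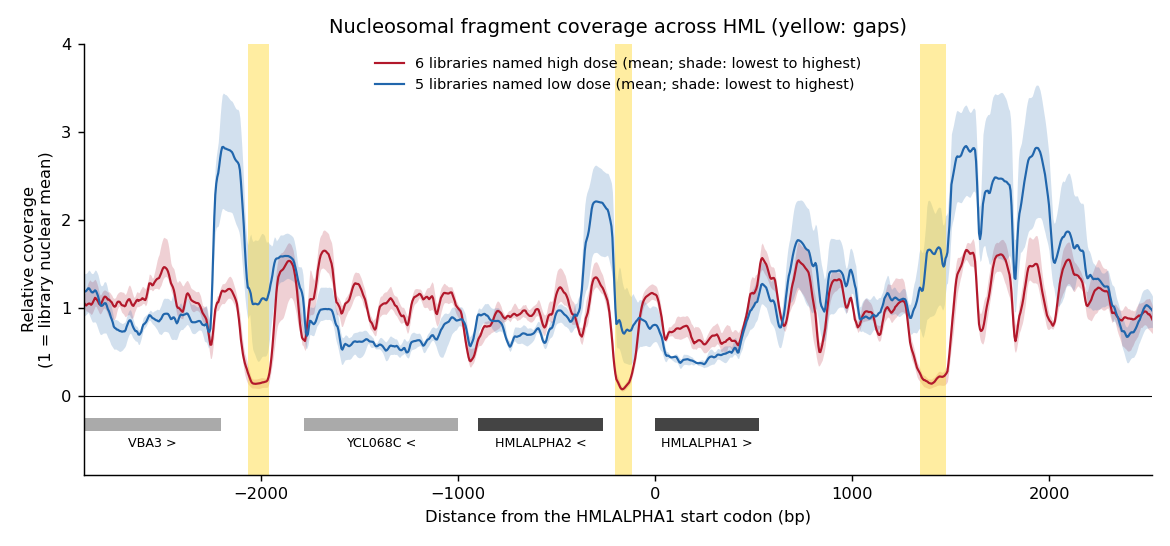
Relative coverage (1 is the library's nuclear mean) across HML and 2000 bp on either side, by distance from the start codon of HMLALPHA1, for the 6 libraries named high dose (red, mean with the range as shade) and the 5 named low dose (blue). Yellow marks the 3 gaps. In the libraries named high dose the gaps fall to 0.230 or less, while in those named low dose they hold 0.428 or more. At the position of the high-dose peak left of the left gap, the libraries named low dose have up to 3.38. The gaps were found in the mean of the libraries named high dose, which favours low values at that dose.

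How strongly coverage varied along a cassette was summarised as its array contrast, the SD over the mean of the smoothed coverage along it. HMR had 0.322 and 0.231 in the libraries named high dose with auxin, 0.244 and 0.248 in untreated OsTIR1 and 0.25 and 0.208 without OsTIR1. In the libraries named low dose it had 0.327 and 0.197 with auxin, 0.227 in untreated OsTIR1, and 0.232 and 0.221 without OsTIR1. Among all windows of the same length in the nuclear genome, HMR stood at the 36.7th to the 53.2nd percentile in the libraries named high dose and at the 9.15th to the 46.2nd in those named low dose. The high-dose array of HMR was thus about as strongly modulated as an ordinary window of the genome. HML had 0.303 to 0.391 in the libraries named high dose, at the 50.2nd to the 66.2nd percentile, and 0.391 to 0.744 in those named low dose, at the 71.0th to the 97.1st. The HML value includes the promoter gap shared with MAT, and the HMR value includes chrIII:293179-293628, which shares its reads with MAT.

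Nuclease resistance was read as the difference of the high dose from the low dose, since resistant DNA takes a larger share of the fragments that remain after heavy digestion. The comparison by the file names called HMLALPHA1, HMRA2 and HMRA1 higher at the high dose and did not call HMLALPHA2. That is 3 of 4 ORFs higher where 74.3% of all 5959 ORF bodies tested were called higher and 10.4% lower (84.7% in all). The log2 differences were 0.42 (SE 0.041, adjusted p 2.22e-06) for HMLALPHA1, 0.21 (SE 0.049, adjusted p 0.00207) for HMRA2, 0.14 (SE 0.036, adjusted p 0.00294) for HMRA1 and -0.05 (SE 0.050, adjusted p 0.366) for HMLALPHA2, from limma with Benjamini-Hochberg adjustment over all bodies. The median of all bodies was 0.32, and the 4 ORFs stood at the 63.9th, 35.2nd, 28.0th and 13.7th percentile in that order.

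The direction for HMR depends on the scale. With coverage scaled to each library's median ORF body in place of its nuclear mean, the median of all bodies was 0.01 and 70.2% of bodies were called, 35.7% higher and 34.5% lower. On that scale HMRA1 was lower at the high dose, at -0.17 (SE 0.046, limma adjusted p 0.00547), HMRA2 was not called at -0.10 (adjusted p 0.164), HMLALPHA1 was higher at 0.12 (adjusted p 0.0391) and HMLALPHA2 lower at -0.37 (adjusted p 0.000266). By the labels 0 of the 4 ORFs and 0.0% of all bodies were called for dose in limma, with 262 bodies and 0 of the 4 at an unadjusted p under 0.05. The ORFs in the flanks of HML were all called higher on the nuclear scale by the file names. YCL068C had 0.62, CHA1, which encodes the catabolic serine and threonine deaminase, 0.62, and VBA3, a vacuolar amino acid transporter gene, 0.13 (limma adjusted p 0.0441). Scaled to the median ORF body, YCL068C and CHA1 stayed higher, at 0.31 and 0.32, while VBA3 was lower, at -0.19 (limma adjusted p 0.0296). No ORF overlaps the flanks of HMR.

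Within a locus the scale drops out. There the HMR cassette stood high against its flanks in the libraries named high dose and low against them in those named low dose. The cassette of HMR was above both of its flanks in 5 of the 6 libraries named high dose and below both in 5 of the 5 named low dose. The log2 ratio of cassette to flanks had a lowest value of 0.08, a median of 0.16 and a highest value of 0.32 in the libraries named high dose, and -1.10, -0.74 and -0.50 in those named low dose. The 1 library not above both flanks was no OsTIR1 high dose replicate 2, where the right flank had 0.964 and the cassette 0.962. The cassette of HML lay below both flanks in all 11 libraries, with a log2 ratio of -0.37 to -0.25 in the libraries named high dose and -0.73 to -0.42 in those named low dose. The flanks of HMR hold its gaps and those of HML its outer gaps. These were found in the mean of the libraries named high dose, which favours low flanks at that dose. Ratios without the gaps were not computed. At MAT the log2 ratio had a median of -0.39 in the libraries named high dose and -0.06 in those named low dose. How many other intervals change in this way was not counted. Part of the HMR cassette, chrIII:293179-293628, shares its reads with MAT. The ratios are descriptions and were not tested.

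In 250 bp tiles, each tile was tested for dose by itself, and cassette tiles were not tested against flank tiles. By the file names, limma called 17 of the 20 tiles in the HMR window, 4 higher and 13 lower at the high dose, and 18 of the 21 in the HML window, 8 higher and 10 lower, where 81.0% of all 48085 tiles were called, 53.1% higher and 27.9% lower. The share called in each window is thus near that of the genome. At HMR the 4 higher tiles were neighbours, chrIII:293251-294250, and ran from the HMRA2 body through HMRA1, with log2 differences of 0.32, 0.50, 0.32 and 0.16. Up to chrIII:293628 they share their reads with MAT. The lowest was the tile at the left gap, chrIII:292501-292750, at -2.29 (SE 0.19, limma adjusted p 6.94e-08), where the libraries named high dose had 0.132 to 0.236 and those named low dose 0.661 to 2.67. The tile over most of the tRNA gene, chrIII:295501-295750, was at -1.59 (limma adjusted p 9.17e-09) and the tile at the right gap, chrIII:294751-295000, at -0.97. Scaled to the median ORF body, 1 HMR tile was higher and 16 were lower, and 4 HML tiles were higher and 13 lower, where 74.6% of all tiles were called, 30.8% higher and 43.7% lower. By the labels no tile of either window was called for dose, where 0.0% of all tiles were, and none had an unadjusted p under 0.05 in limma.

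At HML the tiles at the outer gaps were lowest, with log2 differences of -1.27 (SE 0.098) at chrIII:14501-14750 and -1.23 (SE 0.096) at chrIII:11001-11250. The highest was 0.73 (SE 0.071) at chrIII:11751-12000, in YCL068C, which is shared with MAT. The peaks next to the outer gaps differed in this. On the far side from the cassette, the peak left of the left gap of HML had 1.11 to 1.36 in the libraries named high dose and 2.09 to 3.38 in those named low dose, and the peak right of its right gap had 1.54 to 1.74 and 2.28 to 3.29. The peak left of the left gap of HMR had 0.808 to 1.13 and 1.53 to 2.42, in the same order of doses, so for these 3 the doses did not overlap. How many other positions separate the doses was not counted, where 81.0% of all tiles were called for dose. Values at peaks are coverage at the peak positions of the mean profile of the libraries named high dose. Only 1, 3 and 2 of the 5 libraries named low dose had a peak within 20 bp of these 3 positions. For the peak right of the right gap of HMR the doses did overlap, at 1.18 to 1.67 and 1.47 to 1.87. On the side of the cassette the doses overlapped as well. The peak left of the right gap of HMR had 1.45 to 2.07 in the libraries named high dose and 1.67 to 4.52 in those named low dose. The peak right of the left gap of HML had 1.09 to 1.74 and 1.33 to 1.84. The peak right of the left gap of HMR had 1.201 to 1.57 and 1.06 to 1.31, and the peak left of the right gap of HML 0.954 to 1.32 and 0.934 to 1.22.

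**Figure D5:**
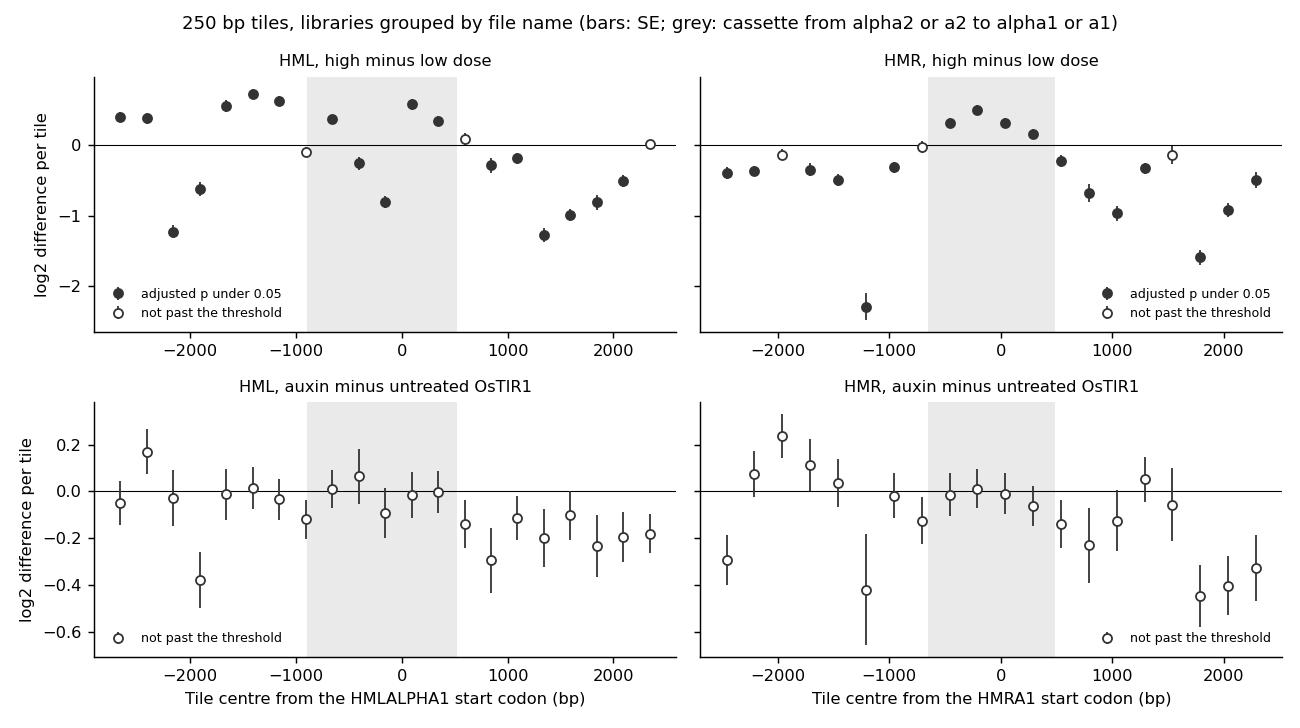
Log2 differences with their SE (limma) of the 250 bp tiles across HML (left) and HMR (right), for high minus low dose (top) and auxin minus untreated OsTIR1 (bottom), libraries grouped by the file names, by distance of the tile centre from the start codon of HMLALPHA1 or HMRA1. Filled points passed an adjusted p of 0.05: 18 of 21 tiles at HML and 17 of 20 at HMR for dose, and none for auxin. Grey marks the cassette, and the 2 rows have different scales.

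Over whole cassettes, the HMR coverage was higher at the named high dose by 0.28 on the log2 scale. The two-sided exact permutation within states gave p = 0.00926, the smallest this design allows, and 0.0741 after Benjamini-Hochberg adjustment over 8 tests. HMR coverage was higher in 6 of 6 libraries than in any named low dose. How many windows of this length separate in this way was not counted, where limma called 74.3% of all ORF bodies higher. Part of the HMR cassette shares its reads with MAT. The HML array contrast was lower at the named high dose, with a difference of -0.21 (exact permutation p = 0.0185, adjusted 0.0741). Neither passed the adjusted threshold of 0.05. By the labels the same differences were 0.03 (exact permutation, adjusted p 0.889) and -0.06 (adjusted p 0.889), and the smallest adjusted p of the 8 was 0.296, for HML coverage by dose at -0.07.

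No comparison called a difference with auxin at the silent ORFs. By the labels, limma called 0 of the 4 ORFs and 0.0% of all bodies, with 17 bodies and 0 of the 4 at an unadjusted p under 0.05. The log2 differences of auxin from untreated OsTIR1 by the labels were -0.04 for HMLALPHA2, 0.10 for HMLALPHA1, 0.07 for HMRA2 and 0.05 for HMRA1. By the file names, where 7.17% of bodies were called, 5.89% higher and 1.28% lower, the ORFs had 0.01, -0.03, -0.02 and -0.02 in the same order, with limma adjusted p of 0.678 to 0.906 and 0 of the 4 at an unadjusted p under 0.05. The estimate less and plus 2 SE ran from -0.11 to 0.07 for HMRA1 and from -0.14 to 0.11 for HMRA2. The MAT copies had 0.00 for MATALPHA2 and -0.01 for MATALPHA1, and the ORFs in the HML flanks -0.05 to 0.03; none was called.

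Within 1 named dose none of the 4 ORFs was called for auxin. Among the 6 libraries named high dose, limma called 0 of the 4 ORFs with auxin, where 3.22% of all bodies were called, and the log2 differences were between -0.0016 and 0.09. Among the 5 named low dose it called 0 of the 4, where 2.16% of bodies were called, with differences of -0.15 to -0.02. HMRA2 in the libraries named low dose had 0.665 and 0.672 with auxin and 0.754 in untreated OsTIR1, and the libraries without OsTIR1 had 0.758 and 0.757. At the named high dose the order was the other way, and it had 0.847 and 0.914 with auxin and 0.810 and 0.833 in untreated OsTIR1. The difference between the doses was not tested.

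The whole-cassette values did not separate the auxin libraries either. By the labels the differences were 0.01 for HML coverage, 0.07 for HMR coverage (both log2), -0.10 for HML array contrast and 0.01 for HMR array contrast, with exact permutation p of 0.500 to 0.889 where the smallest possible was 0.0556. By the file names they were -0.01, -0.03, 0.04 and 0.03, with exact permutation p of 0.389 to 0.778. At the positions of the array peaks, both auxin libraries named high dose lay above the other 4 libraries of that dose at 0 of the 10 HMR and 0 of the 17 HML peaks, and both lay below them at 0 and 1. The 1 was the position 1071 bp from the HMLALPHA1 start, with 0.851 and 0.902 with auxin and 1.11 and 1.00 in untreated OsTIR1.

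No tile of either window was called for auxin in any grouping, where 0.0% of tiles were called by the labels, 0.0624% by the file names, 0.42% in the libraries named high dose and 0.0% in those named low dose. At an unadjusted p under 0.05, limma had 0 HMR and 0 HML tiles by the labels, 5 HMR tiles and 1 HML tile by the file names, 6 HMR tiles and 0 HML tiles in the libraries named high dose, and 0 HMR tiles and 1 HML tile in those named low dose. Over the genome these were 68, 8263, 6618 and 5940 of the 48085 tiles, in the same order. The lowest p at HMR was for the tile over most of the tRNA gene, chrIII:295501-295750, with a log2 difference of -0.45 (SE 0.13, adjusted p 0.125). It had 0.343 and 0.437 with auxin and 0.641 and 0.532 in untreated OsTIR1 at the named high dose, and 0.523 and 0.601 without OsTIR1. At the named low dose it had 1.18 and 1.82 with auxin and 1.99 in untreated OsTIR1, and 1.61 and 1.89 without OsTIR1. The auxin libraries were below untreated OsTIR1 at both doses, and at the named high dose below all 4 others. The 2 auxin libraries named high dose also had the shortest mean fragments of the 11, 129.03 and 129.3 bp, against 131 to 140.3 bp in the other 4, and the part of digestion in these differences was not tested.

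Expression of OsTIR1 without auxin was not matched by a call either. Against the strain without OsTIR1, limma called 0 of the 4 ORFs by the labels and by the file names, where 0.0168% of bodies were called, and the log2 differences by the file names were -0.10 to 0.07. None of the 4 had an unadjusted p under 0.05 in either grouping.

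The genes that act on the silent cassettes were described from a list of 15: SIR1 to SIR4, the silencer-binding factors RAP1, ABF1 and ORC1, the Rap1-binding RIF1, the acetyltransferase genes SAS2 and SAS4, the methyltransferase gene DOT1, the histone chaperone genes ASF1 and RLF2, the histone variant gene HTZ1, and HO. For dose by the file names, 14 of the 15 bodies were called higher and 0 lower, where 74.3% of all bodies were called higher and 10.4% lower, with a median log2 difference of 0.35 against 0.32 over all bodies. Scaled to the median ORF body, 6 were called higher and 4 lower, where 35.7% and 34.5% of all bodies were. By the labels 0 were called for dose or auxin, with 1 and 0 at an unadjusted p under 0.05 in limma.

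For auxin by the file names, 1 of the 15 was called higher and 0 lower, where 5.89% of all bodies were called higher and 1.28% lower. At an unadjusted p under 0.05 limma had 8 of the 15 and 1824 of the 5959 bodies. Scaled to the median ORF body, SIR4 and HTZ1 were called higher, at 0.33 and 0.25, and SIR2 lower, at -0.18 (limma adjusted p 0.0244), where 12.6% of all bodies were called, 9.62% higher and 2.97% lower. On the nuclear scale SIR4, which encodes the scaffold of the Sir complex, had a log2 difference of 0.36 (SE 0.094, limma adjusted p 0.0459). Its body had 1.18 and 1.18 with auxin and 1.03 and 1.05 in untreated OsTIR1 at the named high dose, with 1.04 and 0.995 without OsTIR1. At the named low dose it had 1.09 and 1.02 with auxin and 0.665 in untreated OsTIR1, with 0.680 and 0.598 without OsTIR1. The 2 auxin libraries lay above all others of their named dose, and 1 of the 4 auxin libraries is the one labelled untreated. With each library left out in turn the difference stayed between 0.29 and 0.42, but the call held in 3 of 11 cases, with adjusted p up to 0.331 (without untreated low dose replicate 1). By the labels it was 0.18 (limma adjusted p 1.00). SIR1, which helps the silencers recruit the other Sir proteins, had -0.02, the deacetylase gene SIR2 -0.15 (adjusted p 0.113) and SIR3, whose protein binds the nucleosomes of silent chromatin, -0.08; none of these 3 was called on the nuclear scale. These values are coverage of the genes themselves and say nothing of their expression.

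The ORFs whose coverage moved most like that of HMRA1 over the 11 libraries were YCR099C (r = 0.96), on the same chromosome at chrIII:300832-301299, ADE13 (r = 0.96), which encodes adenylosuccinate lyase, YHL048C-A (r = 0.95), BIO3 (r = 0.95), a biotin synthesis gene, and ECM7 (r = 0.94), out of 5950 compared. These r, on the log2(relative coverage + 0.1) scale, are descriptions: the points share their libraries and fall into the 2 named doses. Among the cassettes, HMRA1 had r of 0.79 with HMRA2, 0.82 with HMLALPHA1 and -0.44 with HMLALPHA2.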

How the data were processed

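Per the file headers, each deposited file holds the coverage signal of every base, as whole numbers of fragments, for 16 nuclear chromosomes and the mitochondrial genome, after the authors kept fragments of 95 to 225 bp. Bowtie2 and sacCer3 are named in the submitters' processing notes. How duplicates and fragments with several matches were treated is not given in the sources used here. Coverage was divided by the nuclear mean without the rDNA. ORF bodies 1000 bp or more from contig ends (5962, of which 5959 passed) and 250 bp tiles were tested if their mean relative coverage was at least 0.1. Tiles had no limit on the distance from contig ends. The test was limma 3.58.1 (R 4.3.3) on log2(relative coverage + 0.1) with terms for state and dose, checked on simulated data. Log2 differences on this scale understate changes at low coverage. Python 3.11.15 (numpy 2.4.6, scipy 1.17.1) did the rest. Peaks were maxima at least 100 bp apart with a prominence of 0.1.

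Groups followed the labels in the planned tests and the file names in the alternative. The genes, lists and tests were chosen with earlier results of these data known. Named were the 4 ORFs, the MAT ORFs, ORFs within 2000 bp of a cassette, the silencing list (values for SIR1 to SIR4) and the 5 ORFs most correlated with HMRA1; the SIR4 detail, single tiles, gaps and peaks were chosen after their values were seen. Whether the labels' replicate numbers pair libraries could not be told. Deviations of same-numbered libraries correlated between -0.85 and 0.90 over 10 pairs of groups. In the OsTIR1 groups with replicates, however, the replicates have opposite named doses, so these r carry the dose. Between the groups without OsTIR1, whose replicates share a named dose, r was 0.09. No sequence was printed.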

Additional observations from a re-analysis of the deposited data

Results flagged for a closer look

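No group of the labels has more than 2 libraries, so single libraries were compared with the others of their named dose, for 12 values of the cassettes, their ORFs and flanks at each dose (24 comparisons). In 4 of them the highest or lowest library stood apart from the rest by more than Dixon's 95% limit, where chance gives about 1 in 20. Among the 6 libraries named high dose, auxin low dose replicate 1 had the lowest right flank of HMR, at 0.784 with the next at 0.910, and the highest HMR array contrast, at 0.322 with the next at 0.25. Among the 5 named low dose, no OsTIR1 low dose replicate 2 had the highest left flank of HMR, at 1.58 with the next at 1.21. Also among these 5, the library labelled untreated OsTIR1 high dose replicate 2 had the highest HMR array contrast, at 0.327 with the next at 0.232. It is the library whose auxin state is in dispute, and it had the fewest fragments of the 11.

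The effect of auxin on the HMR array contrast ran in opposite directions at the 2 labelled doses. It was -0.0718 at the labelled high dose and 0.0844 at the labelled low dose, with every auxin library on 1 side of every untreated one in each. The difference was not tested. By the file names the sides of this comparison hold other libraries.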

How the results depend on the processing

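Numbers of calls changed with the grouping. Grouped by the file names, they were 427 bodies (0 without untreated OsTIR1 low dose replicate 1 or high dose replicate 1, and 942 without auxin high dose replicate 2) and 30 tiles for auxin (599 without no OsTIR1 low dose replicate 2, 1545 without auxin high dose replicate 2 and 0 without any other library), and 5049 bodies and 38932 tiles for dose. That grouping gave 750, 220, 4181 and 35853 scaled to the median ORF body, and 433, 30, 5059 and 38983 scaled to chromosome III, in the same order, both scales chosen after seeing the data. Auxin gave 192 bodies and 202 tiles in the 6 libraries named high dose and 129 bodies in the 5 named low dose. The 7 libraries with agreeing label and name gave 5030 bodies and 38974 tiles for dose. For OsTIR1 against no OsTIR1, the 1 body called became 0 with a pseudocount of 1, a filter at 0.5, or trend and robust fitting. With 1 library left out by the labels, auxin and dose called 0 bodies and 0 tiles.

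The following differences had the other sign than by the labels, and the cause was not tested. For auxin on HML coverage they were -0.076 scaled to the median body, -0.0012 scaled to chromosome III, -0.013 by the file names, -0.052 in the 7 agreeing libraries, -0.00020 without the library disputed for auxin, -0.030 at the named low dose and -0.0094 with the replicate block, with a range of -0.046 to 0.018 leaving out 1 library. For auxin on HMR coverage they were -0.010 scaled to the median body, -0.034 by the file names, -0.012 without the disputed library and -0.089 at the named low dose (range -0.020 to 0.169). For dose on HMR coverage it was -0.071 scaled to the median body (range -0.035 to 0.097). For auxin on HML array contrast they were 0.042 by the file names, 0.028 in the 7, 0.00078 without the disputed library, 0.027 at the named high dose and 0.057 at the named low dose (range -0.210 to 0.00078). For auxin on HMR array contrast they were -0.013 in the 7 and -0.016 with the replicate block (range -0.072 to 0.027). For dose on HMR array contrast they were 0.012 by the file names and 0.0099 in the 7 (range -0.033 to 0.025), and for dose on HML array contrast the range was -0.134 to 0.0059.

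Among the ORFs, auxin gave HMLALPHA2 0.013 by the file names, 0.033 in the 7, 0.018 without the disputed library and 0.051 at the named high dose (range over both groupings -0.073 to 0.067). HMLALPHA1 had -0.034 by the file names, -0.065 and -0.049 on its median body and chromosome III scales, -0.062 in the 7, -0.053 without the disputed library, -0.0016 at the named high dose, -0.083 at the named low dose and -0.029 with fragment length in place of dose (range -0.061 to 0.228). HMRA2 had -0.016, -0.048 and -0.031 by the file names on the 3 scales, -0.00026 without the disputed library and -0.153 at the named low dose (range -0.068 to 0.183). HMRA1 had -0.023, -0.055 and -0.038 on the 3 scales, -0.014 in the 7, -0.010 without the disputed library and -0.058 at the named low dose (range -0.045 to 0.097). For dose, HMLALPHA1 had -0.052 by the labels scaled to the median body. HMRA2 had 0.205 by the file names, 0.209 scaled to chromosome III, 0.112 in the 7 and 0.032 without the disputed library (range -0.049 to 0.237). HMRA1 had 0.141, 0.145, 0.112 and 0.034 in that order (range -0.036 to 0.15). By the file names with 1 library left out, HMLALPHA1, HMRA2 and HMRA1 were called for dose in 11 of 11 cases and HMLALPHA2 in 1, at -0.096 (limma adjusted p 0.0319) without auxin high dose replicate 1. In the 7 agreeing libraries HMLALPHA1 and HMRA1 were called for dose and HMRA2 was not (limma adjusted p 0.0562).

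Whether the replicate numbers pair the libraries could not be told. With the replicate block limma called 0 bodies and 0 tiles for auxin and for dose, as without it. The limits are the reads shared with MAT, the disputed labels and 1 or 2 libraries a group; depth was at least 52.6 fragments per base in each ORF.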
